A study of Mus musculus with 4 samples.

Results

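The melanocyte lineage is specified and kept by a small circle of transcription factors and surface proteins, and 10 of their genes are described here in B16-F10 cells, a mouse melanoma line, after stimulation of the immune receptor TIM-3. The genes were the transcription factors Mitf, Pax3, Sox10, Sox9, Tfap2a and Lef1, the receptors Mc1r, Kit and Ednrb, and the cation channel gene Trpm1. They are 10 of the 19512 named genes on the array. All probes whose gene name or RefSeq accession gave one of them were taken, which were 20 probes (56 spots) among 41174 probes (43379 spots). Of the 20 probes, 17 were bright enough to be tested, and they covered all 10 genes. The study hybridised 4 pairs of samples to 4 Agilent arrays. In every pair the cells of 1 sample had been given an agonist antibody to mouse TIM3 (polyclonal, from goat), and its RNA was labelled with Cy5. Those of the other had been given unspecific goat IgG, and its RNA was labelled with Cy3. The IgG was given at 15 ug/ml for 2 h in culture, and so was the antibody where the labels state it (they do not repeat it for the antibody sample of replicate 3). Replicates 1, 2, 3 and 4 were passages 14, 16, 18 and 19 of the same cell line, so their spread is one among passages and not among animals, and the line was grown without other cells. No array had the dyes exchanged, all 4 lay on 1 slide and were scanned on 1 day, and an effect of the antibody therefore cannot be told apart from a dye effect of a probe.

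In the melanocyte lineage Pax3 and Sox10 activate Mitf, which encodes the basic helix-loop-helix factor that switches on pigment genes, and Lef1 acts at the Mitf promoter together with beta-catenin. Mc1r, the melanocortin receptor, raises cyclic AMP and acts on Mitf through CREB. Kit is the receptor of stem cell factor and Ednrb that of endothelins, and both are needed for the survival and migration of melanoblasts. Sox9 is a SOX factor close in sequence to Sox10, Tfap2a is an AP-2 factor of the neural crest, and Trpm1 is a target of Mitf that is often lost in aggressive melanoma.

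The array read each gene through 60-base probes, and the sequences below show which part of a transcript 4 of the probes saw. They were chosen because their letters are known coding sequence (the files do not say in which part of a transcript a probe lies), and because the first of them gave a result opposite to that of the other probe of its gene. Coordinates are those of the array files, whose build is mm7.
Sox10 A_52_P192625, chr15:79239405-79239464, minus strand: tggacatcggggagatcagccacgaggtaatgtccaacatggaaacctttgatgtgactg
Mitf A_52_P100140, chr6:98094274-98098530, plus strand, across an intron: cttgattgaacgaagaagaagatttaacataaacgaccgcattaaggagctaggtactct
Sox9 A_51_P451606, chr11:112892041-112892893, plus strand, across an intron: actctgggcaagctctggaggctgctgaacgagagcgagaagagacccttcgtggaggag
Tfap2a A_51_P443062, chr13:40164742-40167962, minus strand, across an intron: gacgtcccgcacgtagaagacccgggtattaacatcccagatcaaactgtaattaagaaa
The Mitf probe codes for part of the DNA-binding helix-loop-helix region, and the Sox9 probe for part of the HMG box, with which SOX factors bind DNA. The probe of Sox10 reads a stretch of coding sequence away from the HMG box.

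Log2 ratios of anti-TIM3 over IgG were tested against 0 with limma, and p-values were adjusted over all 26545 tested probes, at a threshold of 0.05. The changes were small across the whole array: the median absolute log2 ratio was 0.08 and the median SD over the 4 arrays 0.07. Even so 27.8% of the tested probes passed, 14.2% higher and 13.6% lower, with a median log2 ratio of 0.0060. Of the 17 member probes 9 passed as higher and 1 as lower (58.8%), and their median log2 ratio was 0.12. By the brightest tested probe of each gene, 6 of the 10 genes were higher and 0 lower (60%, against 28% of the 14476 named genes with a tested probe, 14.6% higher and 13.4% lower), with a median of 0.13. These counts take in Ednrb, whose probe met the brightness limit through the anti-TIM3 channel alone and therefore lends them no support. The gene count takes Sox10 as higher by its brighter probe, at 0.18, while its other tested probe was lower, at -0.30 (limma, adjusted p = 0.00302). Members were chosen with earlier results of these data known, so their shares beside those of all probes are a description. Among probes that stood well above background in Cy5 and Cy3 on each of the 4 arrays, 8 of 14 member probes were higher and 1 lower, where 16.3% of all 20593 such probes were higher and 17% lower (33.3% in all), and 5 of 9 member genes were higher. The member ratios ran between -0.30 and 0.37, so that none of them reached a change of 1.5-fold, and 0 passed when limma tested against a minimum change of 1.2-fold. In this bulk RNA, fewer cells with a transcript and less of it per cell cannot be told apart. The number of higher members was 0 when each array was centred on its median without loess, where the median ratio of all tested probes was 0.15 and that of the members 0.29, and 0 again when both channels were fitted as separate samples. It was 7 without replicate 1, 4 without replicate 2, 4 without replicate 3 and 5 without replicate 4. Of all tested probes 3776 were higher in the main fit and 2142 to 3515 with a replicate left out. Median centring gave 0 and separate channels 328.

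The cells had the defining melanocyte transcripts and lacked several of other cells. Each of the 5 melanocyte markers stood well above background in both samples of every array. The leukocyte markers Ptprc, Itgam and Adgre1, the endothelial marker Pecam1, the fibroblast marker Dcn, the keratinocyte marker Dsg3 and the mast cell marker Cpa3 were well above background on 0 arrays. Between 25703 and 28400 probes were well above background in the anti-TIM3 samples and between 21151 and 22086 in the IgG samples. The share of higher probes was larger among the brightest, 41.9% at mean log2 intensities of 15 to 16 and 89.4% at 16 to 17. All member probes lay below 15, where the share was between 9.79% and 16.8%.

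**Figure D1:**
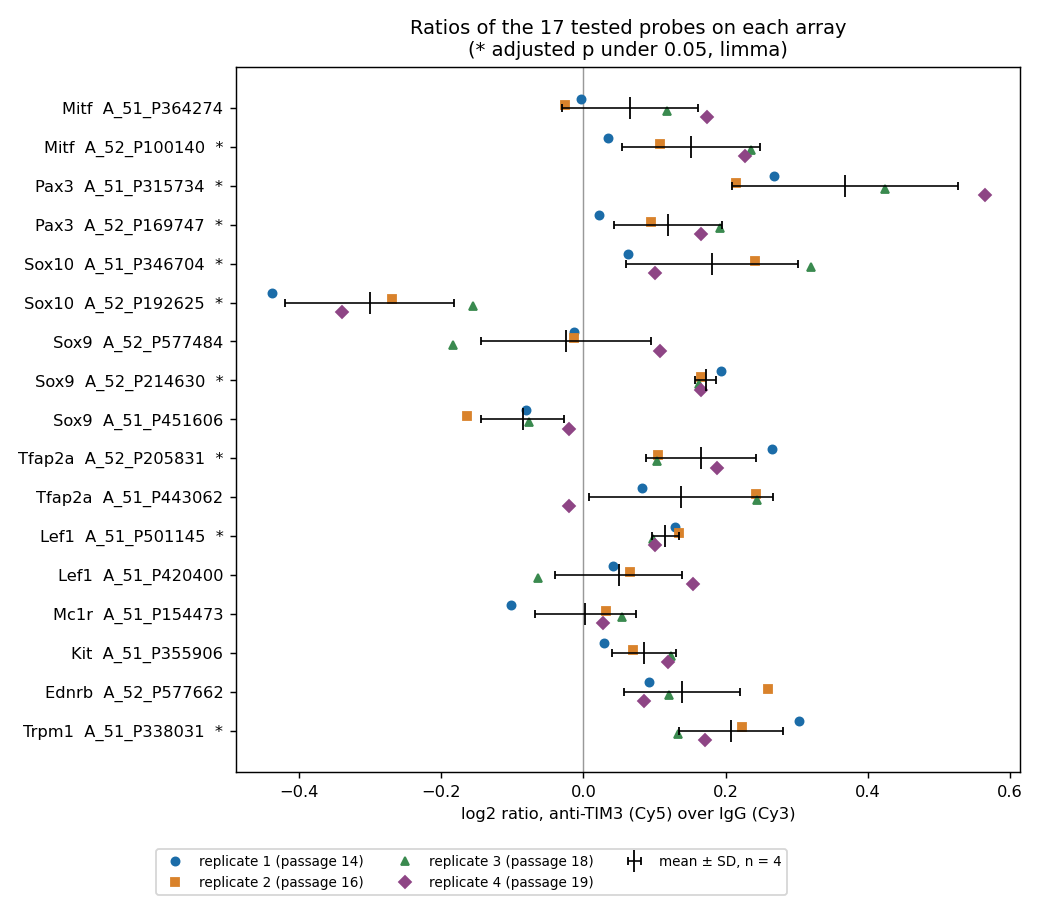
Log2 ratio of anti-TIM3 (Cy5) over IgG (Cy3) on the horizontal axis for each of the 17 tested probes, with 1 symbol per array and a black bar at the mean with the SD over 4 arrays; an asterisk marks an adjusted p under 0.05 by limma (not given to the Ednrb probe, bright enough in the anti-TIM3 channel only). The brighter Pax3 probe lay farthest to the right at 0.37, and the Sox10 probes lay on opposite sides of 0, at 0.18 and -0.30.

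Mitf, the lineage's master regulator, was slightly higher after anti-TIM3 by 1 of its 2 tested probes. The probe in the helix-loop-helix region had log2 ratios of 0.04, 0.11, 0.24 and 0.23 on arrays 1 to 4. The mean was 0.15 ± 0.10 (SD, n = 4; limma, adjusted p = 0.0293), a 1.11-fold higher signal. It did not pass in the deposited ratios, where its mean was 0.12 (adjusted p = 0.136 by limma), nor without replicate 2, 3 or 4 (adjusted p of 0.054, 0.109 and 0.112).

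The brighter Mitf probe, A_51_P364274 at chr6:98106473-98106532, was printed 10 times on each array. Its log2 ratios were -0.0029, -0.025, 0.12 and 0.17. The mean of 0.07 ± 0.10 did not pass (n = 4; limma, adjusted p = 0.268; 95% confidence interval -0.03 to 0.16). Its 10 spots agreed closely within an array, with SDs between 0.021 and 0.025, so the arrays differed by more than the spots did. On array 3 the spots lay between 0.07 and 0.15 and on array 4 between 0.14 and 0.22, while on arrays 1 and 2 they lay on both sides of 0. The signal of this probe was 14.22, 14.09, 13.98 and 13.95 (log2, normalised between channels) in the anti-TIM3 samples and 14.22, 14.12, 13.87 and 13.78 in the IgG samples. The groups overlapped, and the IgG values covered 0.44 on the log2 scale, or 1.36-fold. The difference between the Mitf probes, -0.09, did not pass (limma over all probe pairs, adjusted p = 0.133). A further probe that the files describe as Mitf carries another gene name and was well above background on 0 arrays.

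Pax3, a paired-box factor that acts upstream of Mitf, gave the largest ratio among the member probes. Probe A_51_P315734, at chr1:78328329-78328388 and printed 10 times, had log2 ratios of 0.27, 0.21, 0.42 and 0.56. Its mean was 0.37 ± 0.16 (SD, n = 4; limma, adjusted p = 0.00268), which is 1.29-fold with a 95% confidence interval from 1.18 to 1.41. Every spot on every array was above 0, the lowest at 0.17, and it passed without each replicate in turn (means of 0.30 to 0.42). The normalised log2 signal was 11.30, 11.64, 11.60 and 11.60 in the anti-TIM3 samples and 11.04, 11.42, 11.17 and 11.03 in the IgG samples. The antibody sample was the higher on each array, but replicate 1 of anti-TIM3 lay below replicate 2 of IgG, so the groups overlapped.

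The second Pax3 probe, A_52_P169747 at chr1:78409036-78409095, lies 80707 bases away and had ratios of 0.02, 0.10, 0.19 and 0.17. Its mean of 0.12 ± 0.08 was at the edge of the threshold (n = 4; limma, adjusted p = 0.0499) and did not pass without replicate 2, 3 or 4. The Pax3 probes differed by 0.25 ± 0.12 (SD, n = 4; limma over 11651 probe pairs of the same gene, adjusted p = 0.0101), and the difference was positive on all 4 arrays, between 0.12 and 0.40. In both Pax3 probes and both Mitf probes, arrays 3 and 4 had higher ratios than arrays 1 and 2.

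Sox10, the SOX factor that drives Mitf and the pigment genes, was read in opposite directions by its 2 probes. The brighter probe, A_51_P346704 at chr15:79238027-79238086, had log2 ratios of 0.06, 0.24, 0.32 and 0.10, with a mean of 0.18 ± 0.12 (SD, n = 4; limma, adjusted p = 0.0226). The coding probe printed above, A_52_P192625, had -0.44, -0.27, -0.16 and -0.34, with a mean of -0.30 ± 0.12 (limma, adjusted p = 0.00302), a 0.812-fold signal. Each probe kept its sign on all 4 arrays.

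The normalised log2 signal of the lower Sox10 probe was 8.28, 8.39, 8.48 and 8.22 in the anti-TIM3 samples and 8.72, 8.66, 8.64 and 8.56 in the IgG samples. Every anti-TIM3 value lay below every IgG value. Among the 17 member probes, 3 had groups that did not overlap (12.7% of all tested probes), namely this one and probes of Tfap2a and of Ednrb, the last tested through the anti-TIM3 channel alone. The brighter Sox10 probe had 13.92, 13.66, 13.73 and 13.70 in the anti-TIM3 samples and 13.86, 13.42, 13.41 and 13.60 in the IgG samples, which overlapped.

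The difference between the Sox10 probes was 0.50, 0.51, 0.48 and 0.44 on the 4 arrays. Its mean, 0.48 ± 0.03 (SD, n = 4; limma over all probe pairs, adjusted p = 0.000704), varied far less between arrays than either probe did. Both probes come from the same transcript record, are 30 of 60 bases G or C, and start 1378 bases apart. They are not matched in single bases, with 21 C and 9 G in the brighter probe and 12 C and 18 G in the other. Their mean log2 intensities were 13.66 and 8.49. When trends of the ratios on intensity and on base counts were removed, an alternative chosen after the data had been seen, the difference was 0.46 (limma, adjusted p = 0.00153). Differences of this kind were common, as 34.1% of the 11651 pairs passed, and 4 of the 8 member pairs did. The lower probe passed without each replicate in turn, while the higher probe did not without replicate 2 or 3 (adjusted p of 0.0756 and 0.0836), nor in the deposited ratios (0.0666).

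Sox9 was higher by 1 of 3 probes. Probe A_52_P214630, at chr11:112896540-112896599 and printed 10 times, had log2 ratios of 0.19, 0.17, 0.16 and 0.17. Its mean was 0.17 ± 0.01 (SD, n = 4; limma, adjusted p = 0.00645), the smallest SD among the 17 tested probes. Single spots within an array had SDs of 0.027 to 0.036. Each array value is a mean over its spots, so these SDs cannot be set directly against that over arrays. The HMG-box probe printed above had ratios of -0.08, -0.16, -0.08 and -0.02 and did not pass (mean -0.09; limma, adjusted p = 0.108). The remaining probe, A_52_P577484, had a mean of -0.03 ± 0.12 with array values on both sides of 0 (adjusted p = 0.716). The evenly higher probe differed from both others: the HMG-box probe minus it was -0.26 (limma over all probe pairs, adjusted p = 0.00451), and it minus the remaining probe was 0.20 (adjusted p = 0.024). With the trends on intensity and base counts removed, the alternative chosen after the data had been seen, neither difference passed, at -0.08 (limma, adjusted p = 0.22) and 0.14 (adjusted p = 0.0933). The HMG-box probe has 36 G or C of 60 bases and the evenly higher one 18. The cause of the differences between the Sox9 probes was not tested.

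Tfap2a, which opens enhancers in neural crest and melanocytes, was higher by its brighter probe. Probe A_52_P205831, at chr13:40156450-40156509, had log2 ratios of 0.27, 0.10, 0.10 and 0.19 and a mean of 0.17 ± 0.08 (SD, n = 4; limma, adjusted p = 0.0156). Its normalised log2 signal was 11.69, 11.53, 11.50 and 11.49 in the anti-TIM3 samples and 11.42, 11.42, 11.39 and 11.31 in the IgG samples, with no overlap. With replicate 4 left out it missed the threshold (0.16; limma, adjusted p = 0.0576), as it did in the deposited ratios (0.16; adjusted p = 0.0809). The coding probe printed above had 0.08, 0.24, 0.24 and -0.02, and its mean of 0.14 ± 0.13 did not pass (limma, adjusted p = 0.0658), although it did without replicate 4 (0.19; adjusted p = 0.0336).

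Lef1, the nuclear partner of beta-catenin, had 2 tested probes of low signal and another that was well above background on 0 arrays. Probe A_51_P501145, at chr3:131060609-131060668, had log2 ratios of 0.13, 0.13, 0.10 and 0.10, with a mean of 0.12 ± 0.02 (SD, n = 4; limma, adjusted p = 0.0305). It passed in none of the fits that left out 1 replicate (adjusted p of 0.061 to 0.113). The normalised log2 signal was 7.92, 7.98, 7.84 and 7.87 in the anti-TIM3 samples and 7.80, 7.84, 7.74 and 7.77 in the IgG samples, with a narrow overlap. The other tested probe, A_51_P420400, crosses an intron, was well above background on 4 arrays in the anti-TIM3 channel and 1 in the IgG channel, and had a mean of 0.05 ± 0.09 (SD, n = 4), given here without its test because it met the brightness limit through the anti-TIM3 channel alone.

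Neither Mc1r nor Kit, the receptors that were bright in both channels, passed the test. Mc1r had log2 ratios of -0.10, 0.03, 0.05 and 0.03 at chr8:122049587-122049646, with a mean of 0.0025 ± 0.071 (SD, n = 4; limma, adjusted p = 0.968) and a 95% confidence interval from -0.08 to 0.09. Its normalised log2 signal was 11.25, 10.94, 10.90 and 11.01 in the anti-TIM3 samples and 11.35, 10.91, 10.84 and 10.98 in the IgG samples. The signal was highest in replicate 1 in both groups.

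Kit, read by a probe printed 10 times at chr5:75074515-75074574, had ratios of 0.03, 0.07, 0.12 and 0.12. All were above 0, but the mean of 0.09 ± 0.04 did not pass (SD, n = 4; limma, adjusted p = 0.0967). Its spots were more scattered than those of the brighter probes, with SDs within an array of 0.047 to 0.081.

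The endothelin receptor gene Ednrb was read by a dim probe, A_52_P577662, at chr14:98247658-98247717. Its ratios were 0.09, 0.26, 0.12 and 0.09, with a mean of 0.14 ± 0.08 (SD, n = 4). The normalised log2 signal was 7.08, 7.11, 7.06 and 7.09 in the anti-TIM3 samples and 6.99, 6.86, 6.94 and 7.002 in the IgG samples, with no overlap. The probe was well above background on 4 arrays in the anti-TIM3 channel and on 2 in the IgG channel. It met the brightness limit through the anti-TIM3 channel alone, where it was the brighter, so its values are a description and no test is given. A second Ednrb probe was well above background on 0 arrays in either channel.

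Trpm1, a melanocytic channel gene that hosts a microRNA, was higher on every array. Probe A_51_P338031, at chr7:59977250-59977309, had log2 ratios of 0.30, 0.22, 0.13 and 0.17, a mean of 0.21 ± 0.07 (SD, n = 4; limma, adjusted p = 0.00591) and a 1.15-fold higher signal with a 95% confidence interval from 1.09 to 1.23. It passed without each replicate in turn, but not in the deposited ratios (0.18; limma, adjusted p = 0.0581). The other Trpm1 probe was well above background on 0 arrays.

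The spread of Trpm1 between passages was larger than its ratio on any array. Its normalised log2 signal was 13.10, 12.13, 11.20 and 11.86 in the anti-TIM3 samples and 12.79, 11.90, 11.06 and 11.69 in the IgG samples. Both groups had the same order, with replicate 1 highest and replicate 3 lowest, and the IgG samples covered 3.32-fold. The SD of the IgG samples, 0.72, lay at percentile 99.8 of all tested probes, whose median was 0.10, and at percentile 99.6 without replicate 1.

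Kit had the opposite order. Its normalised log2 signal was 7.51, 7.78, 8.33 and 7.98 in the anti-TIM3 samples and 7.48, 7.71, 8.21 and 7.86 in the IgG samples. Replicate 3 was highest and replicate 1 lowest in both groups, and the IgG samples covered 1.65-fold (SD at percentile 96.9 of all tested probes). In the deposited signals, centred on each array, the IgG SD of Trpm1 was at percentile 97.9 and that of Kit at 93.6. The IgG SDs of the other tested member probes lay between 0.04 and 0.23.

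Some genes that are no members had the same orders. Among the 5 melanocyte markers Tyr, the rate-limiting enzyme of melanin synthesis, had 10.61, 10.30, 9.72 and 10.07 in the anti-TIM3 samples and 10.60, 10.29, 9.79 and 10.03 in the IgG samples, in the order of Trpm1 (IgG SD at percentile 98.1 of all tested probes). The other 4 spread less: the IgG SDs of Dct, Mlana, Pmel and Tyrp1 lay at percentiles 72.9, 48.4, 24.2 and 59.4, and the IgG signal of Dct was highest in replicate 4 and that of Mlana in replicate 2. Col1a1, a collagen gene that marks fibroblasts, had 9.96, 12.23, 13.10 and 12.61 in the anti-TIM3 samples and 9.94, 12.12, 12.95 and 12.38 in the IgG samples, in the order of Kit. Of the 5 fibroblast markers 4 were tested, and their summed log2 signal ran between 10.50 and 13.23 in the anti-TIM3 samples and between 10.47 and 13.08 in the IgG samples. Most of that sum was Col1a1, since Lum and Pdgfra had log2 signals of 6.59 to 7.05 in the anti-TIM3 samples and 6.57 to 7.03 in the IgG samples, and Dcn was well above background on 0 arrays. The mast cell markers, which bear on Kit, summed to between 8.85 and 9.15 in the anti-TIM3 samples and between 8.80 and 9.08 in the IgG samples. Much of that sum is signal near background. In the IgG channel Cma1 and Mcpt4 were well above background on 0 arrays and Tpsb2 on 1. The part of these markers in the spread of Trpm1 and Kit was not tested. The samples of an array share a passage, a hybridisation and a slide position, and passage cannot be told apart from these.

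**Figure D2:**
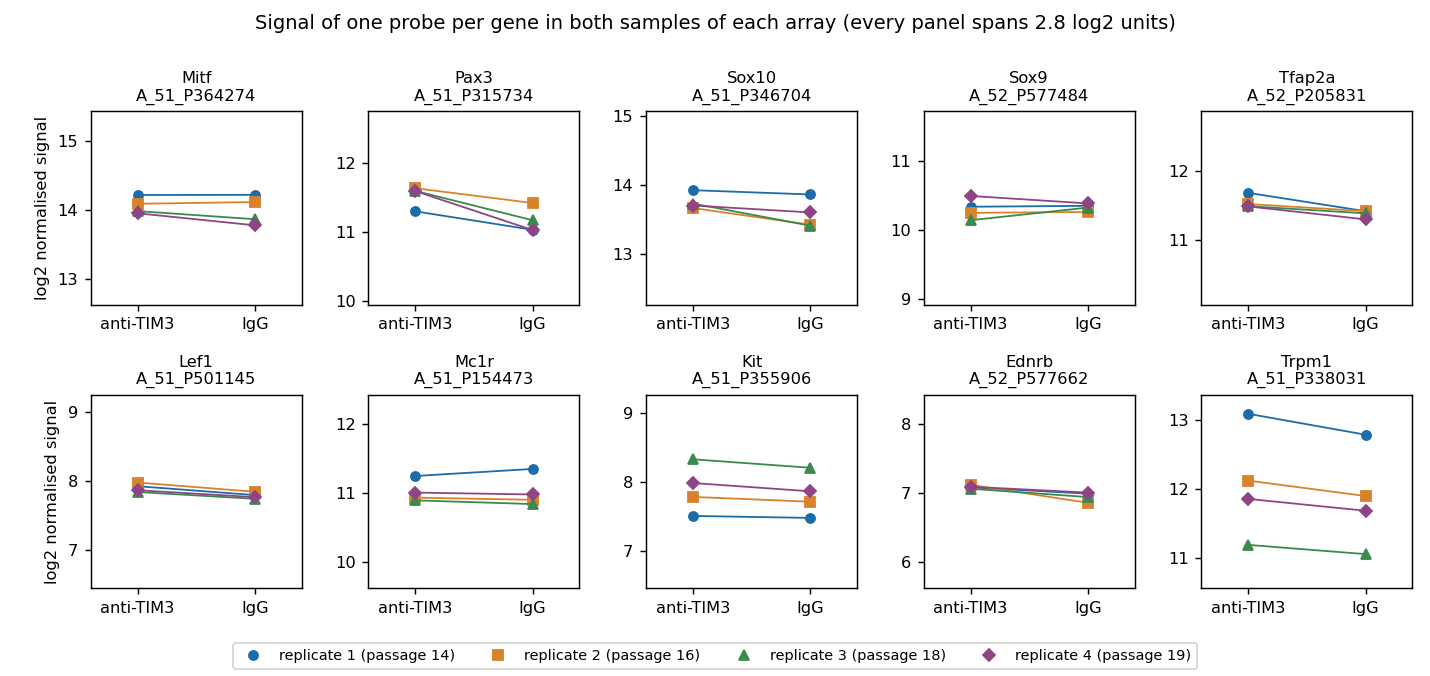
Normalised log2 signal (vertical axis) of 1 probe per gene in the anti-TIM3 sample (left) and the IgG sample (right) of each array, joined by a line per replicate; the panels have different axis limits and the same span. The lines of Trpm1 and Kit are spread apart vertically in opposite orders, between 11.06 and 13.10 for Trpm1, while the slopes are slight in all panels.

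The other genes of the pathway were taken from 4 lists, each gene by its brightest tested probe. The lists were chosen with earlier results of these data known, so their shares beside that of all named genes are a description. Of 22 tested upstream factors and partners, 6 were higher and 2 lower (36.4%, against 28% of all named genes), with a median log2 ratio of 0.08. One of the higher, Tfap2b, met the brightness limit through the anti-TIM3 channel alone. Creb1, through which cyclic AMP acts, had 0.23 ± 0.16 (SD, n = 4; limma, adjusted p = 0.0172), Ctnnb1, beta-catenin, had 0.19 ± 0.08 (0.0092), and Tcf7l1 had 0.19 ± 0.11 (0.0155). Tfe3, a close relative of Mitf, had -0.23 ± 0.11 (limma, adjusted p = 0.00836), and Foxd3, a neural crest factor that represses Mitf, had -0.18 ± 0.13 (0.0276) at a signal that was well above background on only 2 arrays in the IgG channel. Creb1 did not pass without replicate 1, Tcf7l1 not without replicate 4 and Foxd3 not without replicate 2 or 4, and Ctnnb1 did not with a narrower loess span (0.12; limma, adjusted p = 0.087). In the deposited ratios these 4 did not pass (limma, adjusted p of 0.0892 for Creb1, 0.066 for Tcf7l1, 0.203 for Foxd3 and 0.305 for Ctnnb1).

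Ligands and signalling genes of the receptors included 26 tested genes, of which 7 were higher and 3 lower (38.5%, against 28% of all named genes; median 0.02). The count called, 10, was 5 in the deposited ratios, 6 with a normexp offset of 10 and 6 to 7 with a replicate left out. The higher ones were led by Plcb4, a phospholipase downstream of Gq, at 0.21 ± 0.11 (SD, n = 4; limma, adjusted p = 0.0109), Gsk3b, the kinase that marks beta-catenin for degradation, at 0.21 ± 0.09 (0.00747), and Ece1, which cleaves endothelin precursors, at 0.18 ± 0.03 (0.00606). Dvl2 and Axin1, both of the Wnt pathway, were lower, at -0.41 ± 0.17 (limma, adjusted p = 0.00209) and -0.26 ± 0.14 (0.00712), as was Prkacb, a catalytic subunit of protein kinase A, at -0.14 ± 0.07 (0.0258). Prkacb did not pass without replicate 1, 3 or 4 (limma, adjusted p of 0.0718, 0.054 and 0.079), and neither Prkacb (0.0796) nor Plcb4 (0.39; 0.0563) did in the deposited ratios.

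Known targets of MITF and SOX10 changed in both directions: of 31 tested, 10 were higher and 6 lower (51.6%, against 28% of all named genes), with a median of 0.02. Mlana and Pmel, both melanosome proteins, had 0.58 ± 0.13 (SD, n = 4; limma, adjusted p = 0.000319) and 0.51 ± 0.07 (0.000196), at mean log2 intensities of 16.6 and 16.7, the range in which 89.4% of all probes were higher. Of the other higher targets, Dct and Tyrp1 lay in that range too, at 16.8 and 16.5. Slc45a2 and Met lay at 15.8 and 15.3, where 41.9% of all probes were higher. Gpnmb, at 16.1, did not pass. The 28% of all named genes takes no account of intensity, so it is not a matched comparison for this list. With a narrower loess span Mlana was at 0.34 and Pmel at 0.25, and in the deposited ratios Mlana was at 0.30 and Pmel at 0.19, where Pmel did not pass (limma, adjusted p = 0.055). Ppargc1a, a coactivator of mitochondrial genes, had 0.49 ± 0.18 (limma, adjusted p = 0.00136) at 12.5, where 13.5% of the probes were higher. Diaph1 had -0.34 ± 0.11 (limma, adjusted p = 0.00181), Hif1a -0.26 ± 0.04 (0.00165) and Tbx2 -0.18 ± 0.06 (0.00832). Tbx2 was at -0.01 with the trends on intensity and base counts removed (adjusted p = 0.863). Tyr, the target closest to pigment synthesis, had a log2 ratio of -0.0019.

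Markers of neural crest and of dedifferentiated melanoma included 16 tested genes, of which 4 were higher and 0 lower, with a median of 0.02 (25%, against 28% of all named genes). Tead1 had 0.23 ± 0.08 (SD, n = 4; limma, adjusted p = 0.00484), Vim 0.22 ± 0.10 (0.00666) and Aqp1 0.20 ± 0.10 (0.0106). Vim lay at a mean log2 intensity of 16.1, was at 0.04 with a narrower loess span (limma, adjusted p = 0.607) and at -0.026 in the deposited ratios.

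**Figure D3:**
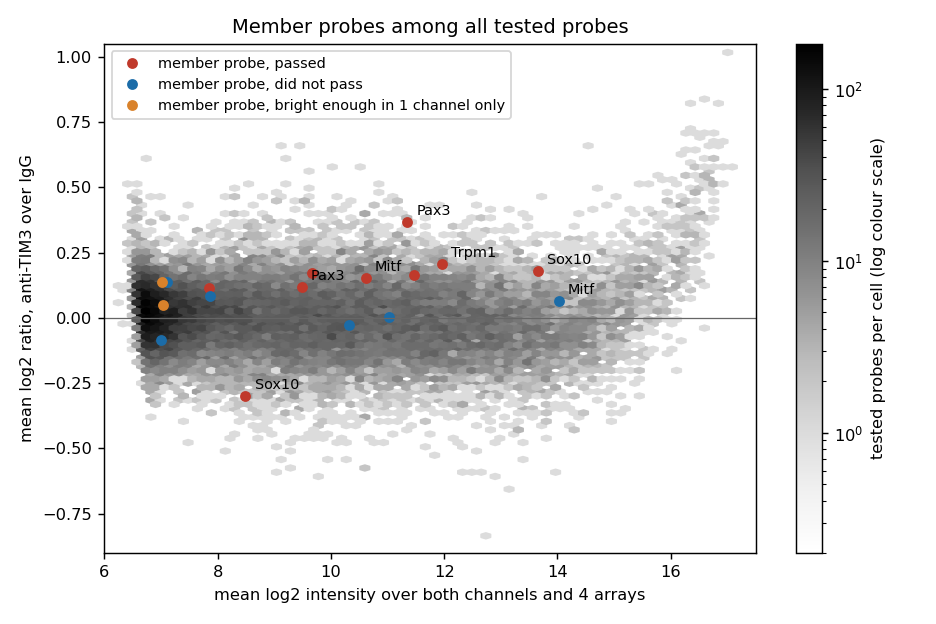
Mean log2 ratio of anti-TIM3 over IgG (vertical axis) against mean log2 intensity (horizontal axis) for all 26545 tested probes in grey, darker where more probes fall, with the member probes as coloured dots (orange where bright enough in the anti-TIM3 channel only). The member dots lie below an intensity of 15, to the left of the upward bend, and the Pax3 probe at 0.37 and the Sox10 probe at -0.30 stand outside its dense part, where other probes reach farther from 0 in both directions.

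By the 4 ratios of the brighter Mitf probe, the named genes with the most similar values were Gpm6b, a membrane glycoprotein gene, at a Euclidean distance of 0.022 over 4 arrays, Rttn at 0.037, and A430035B10Rik at 0.042. The ratios of Gpm6b were 0.0095, -0.041, 0.11 and 0.17. With 4 values a gene and 14476 named genes, such distances are a description of these arrays.

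Promoters were searched on both strands for short motifs of the same factors, in the 250 bases before each RefSeq start (GRCm38.p6). Of the 10 members 7 matched the table, while Sox10, Sox9 and Pax3 had no window to search. The last of the 3 Mitf starts is shown because CREB and LEF1 are known to act on it. The capitals mark CTTTGAT, a form of the LEF1/TCF motif, at positions -205 to -199 from the start, and TGACGTCA, the cyclic AMP response element, at -153 to -146.
Mitf promoter, chr6:97991533-97991782, plus strand: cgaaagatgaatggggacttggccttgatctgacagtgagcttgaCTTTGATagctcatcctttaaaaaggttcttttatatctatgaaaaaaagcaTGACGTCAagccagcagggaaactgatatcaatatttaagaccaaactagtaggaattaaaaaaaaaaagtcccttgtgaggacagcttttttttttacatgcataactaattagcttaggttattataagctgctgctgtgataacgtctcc
Of all 32851 windows of that length, 1.55% held TGACGTCA and 3.21% held CTTTGAT. Neither was found in the windows of the other 6 matched members or of the other Mitf starts. CATGTG, an E-box that MITF binds, had 1 match in a window of Trpm1 and 2 in that of Mc1r (12.3% of all windows hold it), and CACGTG, another E-box, had 1 in the other window of Trpm1 and 1 in a window of Lef1 (6.02%). Of the SOX motifs searched, ACAAAG had 1 match in that window of Lef1 (16.5%) and AACAAT had 0 in the matched members (9.42%).

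The authors' deposited ratios, processed by their own software, lay near these values for most bright probes and were larger in size for several dim ones. Of the 17 probes, 6 were higher and 1 lower in them, where 19.8% of all tested probes passed, and the 6 take in the dim probes of Ednrb and Lef1. Pax3 A_51_P315734 had a deposited mean of 0.38 and Sox10 A_52_P192625 of -0.46 (limma, adjusted p of 0.0282 and 0.0179). Those of Ednrb and Lef1 A_51_P420400, 0.37 and 0.39, are a description, against 0.14 and 0.05 in the loess-normalised data.

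**Figure D4:**
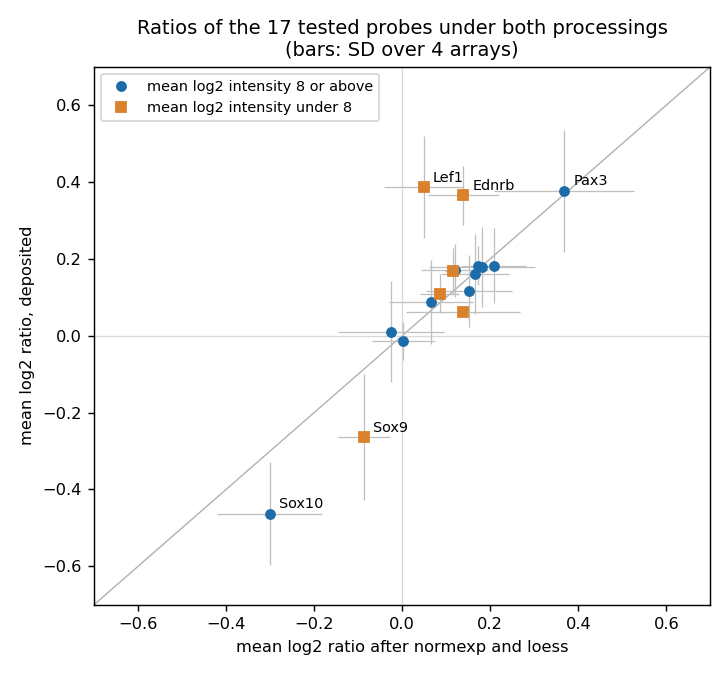
Mean log2 ratio of each tested member probe in the deposited data (vertical axis) against the value after normexp and loess (horizontal axis), with bars of 1 SD over 4 arrays and a diagonal of equal values. Most points lie near the diagonal, while dim probes of Lef1 and Ednrb lie above it, at 0.39 and 0.37, and the Sox10 probe at -0.46 lies below it.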

How the data were processed

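RNA of 4 anti-TIM3 samples (Cy5) and 4 IgG samples (Cy3) was measured on 4 arrays. The authors' scanner files give, per spot and channel, a linear intensity with flags (well above background, saturated, outlying). They also give a deposited log10 ratio of Cy5 over Cy3, to which the deposited value table is identical, with a median of 0 in each column. Per the file headers the software was Agilent Feature Extraction (9.5.1.1, or 9 in the submitters' processing notes).

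From the intensities, background was corrected by normexp (offset 50), arrays were loess-normalised (span 0.3, control spots at weight 0, outlier spots left out), and spots of a probe were averaged. A probe was tested where 3 or more of the 4 arrays had it well above background in Cy5 or in Cy3. The two-sided test used lmFit and eBayes of limma (version 3.58.1, under R 4.3.3), and Benjamini-Hochberg adjustment covered every tested probe. Signals per sample came from Aquantile normalisation of the same data, which leaves each ratio as it is. Differences between probes of a gene were fitted in the same way over 11651 pairs.

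Probes were named through RefSeq: 22951 by accession, 131 by an accession in the probe's list, 6582 by current symbol, 3073 by synonym, and 8437 kept the file's name. Promoter sequences are RefSeq's, and the files give the probe sequences. The exon or untranslated region of a probe is not given in the sources used here. The named genes are all members, up to 3 higher and 3 lower genes per list with the largest ratio among those that passed with 1 sign on all arrays, and the 3 nearest to Mitf. Tyr, Col1a1 and the marker sums were added after their values were seen. Members and lists were chosen with earlier results of these data known. On simulated ratios with the real probes' variances, 33% of 100 probes shifted by 0.25 (log2) and 83% of 100 shifted by 0.5 were recovered among 26545, with 3 false calls. For pair differences, simulated as if the probes of a gene varied independently, 26% and 84% were recovered among 11651. The Sox10 pair varied less between arrays than either of its probes, so this recovery need not hold for real pairs. On the arrays 27.8% of the tested probes and 34.1% of the pairs passed, and recovery at such larger shares was not tested. Few arrays limit the precision. The pairing of channels comes from the array, since both samples of an array are of the same passage.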

Additional observations from a re-analysis of the deposited data

Results flagged for a closer look

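In 2 member probes, the value of 1 array stood apart from the other 3 by more than Dixon's 95% critical value for 4 samples, which chance alone exceeds in about 1 of 20 groups. Mc1r had a log2 ratio of -0.10 on the array of replicate 1, against 0.03 to 0.05 on the others. Without that array its mean was 0.04, and it passed in neither case. Sox9 A_52_P214630 had 0.19 on the array of replicate 1, against 0.163 to 0.166 on the others, a gap of 0.909 of the whole range, while its 10 spots on that array lay between 0.16 and 0.25.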

How the results depend on the processing

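In all, 16 alternatives were run, of which the removal of trends on intensity and base counts was chosen after the data had been seen. With median centring without loess, 0 member probes were higher and 0 lower, 0 member genes were higher, 0 of all tested probes passed in either direction, 0 genes of each of the 4 lists passed, and 202 same-gene pairs but 0 member pairs did. The cause was not tested. In that setting the signs of called list genes turned for Hif1a (0.15), Tbx2 (0.13) and Prkacb (0.10), where the median of all probes was 0.15, and Vim was at -0.026 in the deposited ratios. The paired design was the main one, and without it (channels fitted separately, no replicate block) 0 member probes passed in either direction, 0 member genes, 328 of all probes were higher and 252 lower, and the lists gave 0, except 5 targets. Against a minimum change of 1.2-fold 0 member probes passed in either direction and 0 genes, 43 of all probes were higher and 13 lower, and the lists gave 0, except 2 targets. The deposited ratios gave 3 higher member genes, among them Ednrb, which met the brightness limit through the anti-TIM3 channel alone. They gave 2871 higher and 2382 lower probes in all, 3 upstream factors, 5 signalling genes and 8 targets. There 2 member pairs passed, as did 2837 of all 11651 pairs. With no filter on dim probes 2 member probes were lower, with an offset of 10 the signalling list gave 6, and with the trends removed 2 member pairs passed. Leaving out each replicate in turn gave 4 to 7 higher member probes, 1 lower, 3 to 4 higher genes, 2142 to 3515 higher and 2080 to 2736 lower of all probes, 2523 to 2981 pairs, 4 to 8 upstream factors and 6 to 7 signalling genes. Those fits have fewer arrays. Of 378 values of single member probes and pairs, 305 kept their side of the threshold, 70 no longer passed and 3 passed only under an alternative. No called member probe changed sign. The dimmest tested member probes had little signal over background, which limits their ratios. With a normexp offset of 10, Ednrb went from 0.14 to 0.22 and Lef1 A_51_P420400 from 0.05 to 0.08. Sox9 A_51_P451606 went from -0.09 to -0.13 and Tfap2a A_51_P443062 from 0.14 to 0.21. In the deposited ratios, which also differ in normalisation, these probes were at 0.37, 0.39, -0.26 and 0.06. The cause was not tested.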
